A study of Mus musculus with 9 samples.

Results

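The 4 latent TGF-beta binding protein genes, Ltbp1, Ltbp2, Ltbp3 and Ltbp4, were followed across 9 whole-kidney RNA libraries. They were chosen by gene symbol, as 4 of 56305 gene rows in a table of counts. All libraries came from mouse kidney, with 3 in each of 3 groups. Injured knockout mice (PFKFB3 CKO, Pfkfb3ΔPTC) lacked Pfkfb3 conditionally in proximal tubular cells and were taken at day 14 after ischemia-reperfusion injury (IRI), made by clamping the arteries of both kidneys for 30 minutes. Injured wild-type littermates (PFKFB3 WT) were taken at the same day after the same injury, and sham wild-type littermates had no such injury. The study asked what PFKFB3, an enzyme that promotes glycolysis, does in kidney fibrosis. The sources used here give neither the Cre driver nor the ages, and a knockout sham group was not analysed here. Whether each library is a mouse of its own is not stated, and p-values therefore cover the spread among these samples alone, which may be technical.

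Transforming growth factor beta (TGF-beta), the main growth factor of scar formation, leaves the cell in a latent form, held inactive by its own propeptide. A latent TGF-beta binding protein is joined to that propeptide by disulphide bonds and fixes the complex to fibrillin microfibrils and fibronectin in the matrix, from which integrins and proteases can release the active factor. LTBP1 and LTBP3 carry TGF-beta efficiently and LTBP4 does so weakly. LTBP2 has the same domain plan but does not bind latent TGF-beta. It binds fibrillin-1 and fibulin-5, and in humans its loss affects the fibres that hold the lens. LTBP4 also guides the laying down of elastic fibres.

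The promoter windows of the 4 genes are shown because Ltbp2 and Ltbp3 moved in the same direction with injury while Ltbp1 and Ltbp4 passed no test. Each runs from 250 bases before to 50 bases after the most upstream start that RefSeq lists (build GRCm38.p6), 5′ to 3′ on the gene's strand. Ltbp2 is shown from chr12:84876442-84876741 (minus strand), Ltbp3 from chr19:5740650-5740949 (plus strand), Ltbp1 from chr17:75005279-75005578 (plus strand) and Ltbp4 from chr7:27337563-27337862 (minus strand). Capitals mark every match to one of the motifs searched on both strands.
Ltbp2: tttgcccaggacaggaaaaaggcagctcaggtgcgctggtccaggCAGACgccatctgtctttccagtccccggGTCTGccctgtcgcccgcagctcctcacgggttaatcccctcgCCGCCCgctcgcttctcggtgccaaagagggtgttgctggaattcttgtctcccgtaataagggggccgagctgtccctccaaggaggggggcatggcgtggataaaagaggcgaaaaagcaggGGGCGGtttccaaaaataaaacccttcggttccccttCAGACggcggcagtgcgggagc
Ltbp3: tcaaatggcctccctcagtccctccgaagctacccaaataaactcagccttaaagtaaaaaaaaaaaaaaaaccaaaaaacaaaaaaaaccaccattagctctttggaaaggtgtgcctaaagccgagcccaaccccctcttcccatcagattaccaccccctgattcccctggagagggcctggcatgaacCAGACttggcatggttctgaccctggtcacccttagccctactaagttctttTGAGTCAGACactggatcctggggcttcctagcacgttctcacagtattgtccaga
Ltbp1: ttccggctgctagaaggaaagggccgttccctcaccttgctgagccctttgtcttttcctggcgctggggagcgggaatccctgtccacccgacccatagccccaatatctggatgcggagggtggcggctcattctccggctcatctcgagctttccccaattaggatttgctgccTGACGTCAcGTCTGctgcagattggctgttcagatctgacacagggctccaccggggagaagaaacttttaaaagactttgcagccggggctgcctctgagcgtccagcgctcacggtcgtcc
Ltbp4: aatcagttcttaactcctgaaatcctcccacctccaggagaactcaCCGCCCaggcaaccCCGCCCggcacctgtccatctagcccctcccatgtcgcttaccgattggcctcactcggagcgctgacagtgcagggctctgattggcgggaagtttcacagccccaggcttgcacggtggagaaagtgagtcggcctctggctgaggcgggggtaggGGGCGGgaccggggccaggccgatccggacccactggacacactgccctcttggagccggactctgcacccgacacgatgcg
The motifs were the Smad element CAGAC, the AP-1 site TGANTCA, the cAMP response element TGACGTCA, the GC box GGGCGG, the TATA box TATAAA, and the NF-kB site and the CArG box, which need other letters. The Ltbp2 window held 3 matches to CAGAC and 2 GC boxes. The Ltbp3 window held 2 matches to CAGAC, one of which overlapped its single AP-1 match. In the Ltbp1 window there were 1 CAGAC match and 1 cAMP response element, and in the Ltbp4 window 3 GC boxes and no Smad element. RefSeq listed 2 starts for Ltbp1 and 3 for Ltbp4, against 1 each for Ltbp2 and Ltbp3. The windows of the further starts were not searched for these genes. The Smad element was present in 49.6% of 32817 windows of the same length, the GC box in 35.6%, the AP-1 site in 7.81% and the cAMP response element in 1.79%. The TATA box (13.6% of windows), the NF-kB site (4.50%) and the CArG box (1.63%) had no match in any of the 4 windows. These matches describe letters and not binding.

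Libraries held 15626792 to 16426817 counts in injured knockout, 16946876 to 17873558 in injured wild-type and 18707315 to 19987842 in sham kidneys. The targeted gene Pfkfb3 lay at 20.8 ± 4.04 CPM (counts scaled to a common library size with TMM) in injured knockout kidneys, against 32.0 ± 5.88 CPM in injured wild-type kidneys and 20.7 ± 1.06 CPM in sham kidneys (SD, n = 3 each). Kidney markers were present throughout, with summed proximal tubule markers at 8795 to 10278 CPM in injured knockout libraries, 1833 to 3108 CPM in injured wild-type libraries and 10808 to 12466 CPM in sham libraries. One library stood apart in its cell markers. Injured knockout replicate 1 had 107 CPM summed over 5 endothelial markers, against 261 and 263 CPM in the other injured knockout libraries. It had 78.9 CPM summed over 4 podocyte markers, against 336 and 350 CPM. Its fibroblast sum was also the lowest of its group, at 131 CPM against 265 and 205 CPM. So was its smooth muscle and pericyte sum, at 380 CPM against 638 and 558 CPM. Its thick limb sum (1376 CPM against 1678 and 1433 CPM) and macrophage sum (106 CPM against 121 and 123 CPM) were the lowest too. Its proximal tubule sum (9220 CPM) was not the lowest. Where this library moved a member's value by over 1.5 times or turned its sign, the value without it is also given.

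Ltbp2 rose steeply with injury in wild-type kidneys. It had 59.3, 56.3 and 65.5 CPM in injured wild-type libraries (1290, 1267 and 1521 counts), against 0.645, 1.88 and 0.595 CPM in sham libraries (11, 34 and 10 counts). Every injured wild-type library was far above every sham library, and sham replicate 2 was the highest of the sham group. The fitted rise was 56.9-fold (log2 fold change 5.83, SE 0.36, adjusted p = 3.99e-07, edgeR quasi-likelihood test with Benjamini-Hochberg adjustment). The log2 fold change was 6.60 without sham replicate 2. Of 15974 tested genes 59 had a larger log2 fold change in this comparison. The gene (ENSMUSG00000002020, chromosome 12, 84783212 to 84876532, mm10) reached the cutoff of the low-count filter in 3 of 3 injured wild-type libraries, 2 of 3 injured knockout libraries and 1 of 3 sham libraries, where 3 libraries of any group are enough to pass.

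Ltbp3 rose less. It lay at 74.2, 77.7 and 92.4 CPM in injured wild-type libraries, against 29.4, 31.2 and 37.0 CPM in sham libraries, and the groups did not overlap. The rise was 2.504-fold (log2 fold change 1.32, SE 0.13, adjusted p = 7.01e-06, edgeR). Ltbp1 did not pass the test, at 19.7, 18.9 and 14.9 CPM in injured wild-type against 13.95, 17.0 and 13.7 CPM in sham libraries (log2 fold change 0.26, 95% interval -0.23 to 0.75, adjusted p = 0.343, edgeR). Ltbp4 did not pass it either, at 124, 99.3 and 118 CPM in injured wild-type against 102, 119 and 91.0 CPM in sham libraries (0.13, 95% interval -0.49 to 0.75, adjusted p = 0.715, edgeR). The ranges of both genes overlapped between the groups, and their intervals leave room for rises of up to 0.75 on the log2 scale. So 2 of 4 members rose and 0 fell, where 29.5% of all tested genes rose, 28.7% fell and 58.2% changed in either direction. The groups did not overlap for those 2 members, as for 66.9% of all genes. When libraries were scaled by size alone, which put the all-gene median at 0.57 in place of 0.03, Ltbp1 was called higher (0.80, adjusted p = 0.00796, edgeR) and Ltbp4 stayed short of the threshold (0.68, adjusted p = 0.0548, edgeR).

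**Figure D1:**
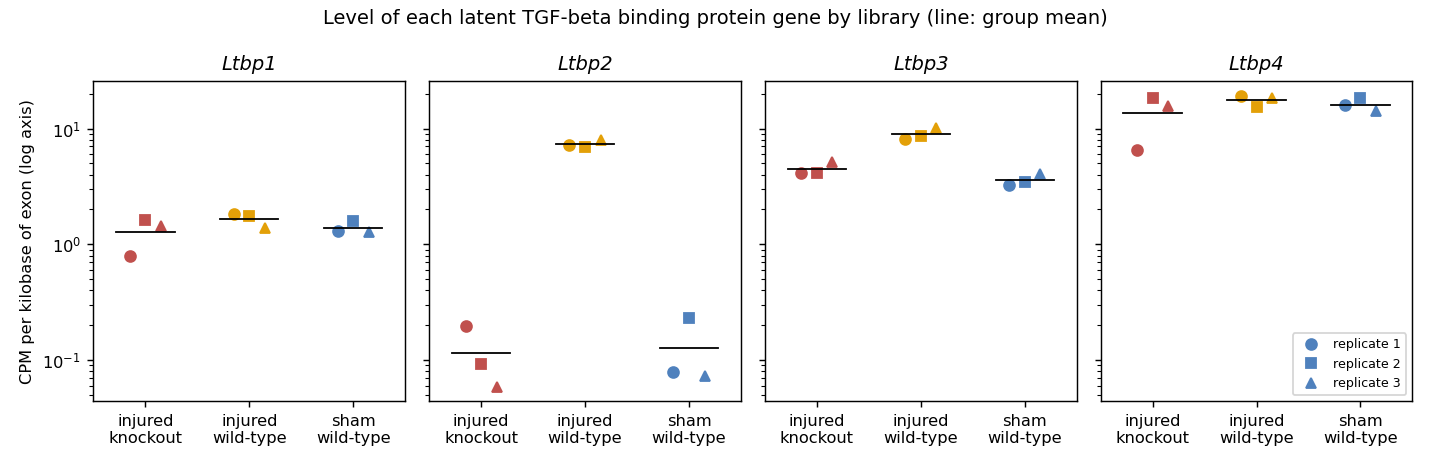
Level of each gene in every library, in CPM per kilobase of exon on a log axis, with a marker per replicate and a line at each group mean. Injured wild-type libraries lie at 6.88 to 8.0 for Ltbp2, far above injured knockout (0.0588 to 0.196) and sham (0.0727 to 0.230) libraries, while the groups overlap for Ltbp1 and Ltbp4.

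Injured knockout kidneys lacked the high Ltbp2 level of injured wild-type kidneys. Without knockout sham kidneys, a change with injury within knockouts could not be measured. Ltbp2 had 1.61, 0.754 and 0.481 CPM in injured knockout libraries (22, 10 and 7 counts), against the 56.3 to 65.5 CPM of injured wild-type libraries. It was 63.6-fold lower in injured knockout kidneys (fitted log2 fold change -5.99, SE 0.38, adjusted p = 4.60e-07, edgeR), and the log2 fold change was -6.60 without injured knockout replicate 1. Only 49 of 15974 genes had a more negative value. Ltbp3, at 37.6, 37.7 and 46.8 CPM in injured knockout libraries, differed from injured wild-type kidneys by -1.0 on the log2 scale (2.001-fold lower, SE 0.13, adjusted p = 5.63e-05, edgeR), with no overlap. So 2 of 4 members fell and 0 rose, where 28.1% of all genes fell, 27.8% rose and 55.9% changed in either direction, and 63.2% of genes had no overlap between these groups.

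Ltbp1 and Ltbp4 did not pass the test between the injured groups, and each was low in one knockout library. Ltbp1 had 8.55, 17.2 and 15.4 CPM in injured knockout libraries (log2 fold change against injured wild-type -0.38, 95% interval -0.88 to 0.12, adjusted p = 0.178, edgeR). Ltbp4 had 42.2, 119 and 101 CPM there (-0.38, 95% interval -0.997 to 0.24, adjusted p = 0.281, edgeR). The low value of both was that of replicate 1, the library with few endothelial and podocyte transcripts. Its fibroblast and its smooth muscle and pericyte marker sums were also the lowest of the injured knockout group. Without replicate 1 the log2 fold changes were -0.12 for Ltbp1 and -0.03 for Ltbp4 (adjusted p = 0.558 and 0.855, edgeR). Ltbp3 had nearly the same level in that library as in replicate 2, and Ltbp2 was highest there among the injured knockout libraries. The part of any of these cell types in these values was not tested. With scaling by library size alone, which put the all-gene median at -0.59 in place of -0.01, Ltbp1 and Ltbp4 were called lower (-0.96 for each, adjusted p = 0.00303 and 0.0119, edgeR).

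**Figure D2:**
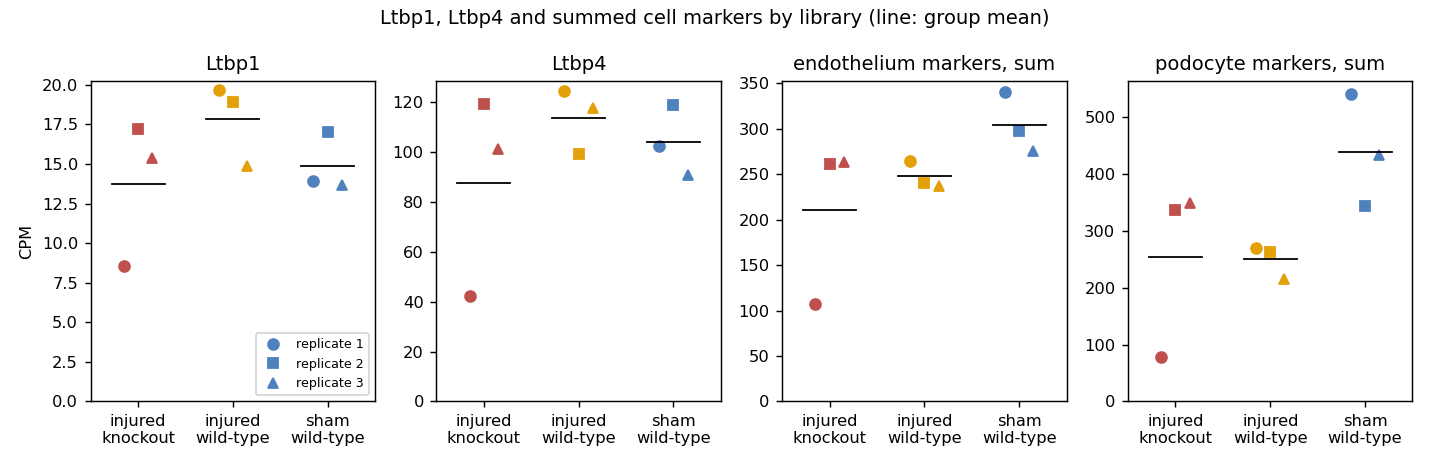
CPM of Ltbp1 and Ltbp4 and summed CPM of 5 endothelial and 4 podocyte markers, by group, with a marker per library and a line at each group mean. Injured knockout replicate 1 is the lowest library in all 4 panels, at 8.55 CPM for Ltbp1 and 42.2 CPM for Ltbp4.

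Against sham kidneys, injured knockout kidneys showed 0 called members by edgeR, where 17.6% of all genes were called, 8.13% higher and 9.48% lower. That share is itself unstable, since the 2813 genes called became 640 without sham replicate 2. At an unadjusted p under 0.05 there was 1 of 4, Ltbp3 (log2 fold change 0.32, 95% interval 0.04 to 0.61, adjusted p = 0.109, edgeR). Ltbp3 was called when a replicate block was added to the fit. Its injured knockout libraries (37.6 to 46.8 CPM) lay just above the sham libraries (29.4 to 37.0 CPM), and the groups did not overlap, as for 36.3% of all genes. For Ltbp2 the log2 fold change was -0.16 with a wide 95% interval of -1.23 to 0.91, since both groups held few counts. This value became -0.78 without injured knockout replicate 1 and 0.60 without sham replicate 2. Ltbp1 gave -0.12 (95% interval -0.62 to 0.38) and Ltbp4 -0.25 (95% interval -0.87 to 0.37), and these became 0.13 and 0.09 without injured knockout replicate 1. This comparison and those above share libraries, so their values are not independent of each other.

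**Figure D3:**
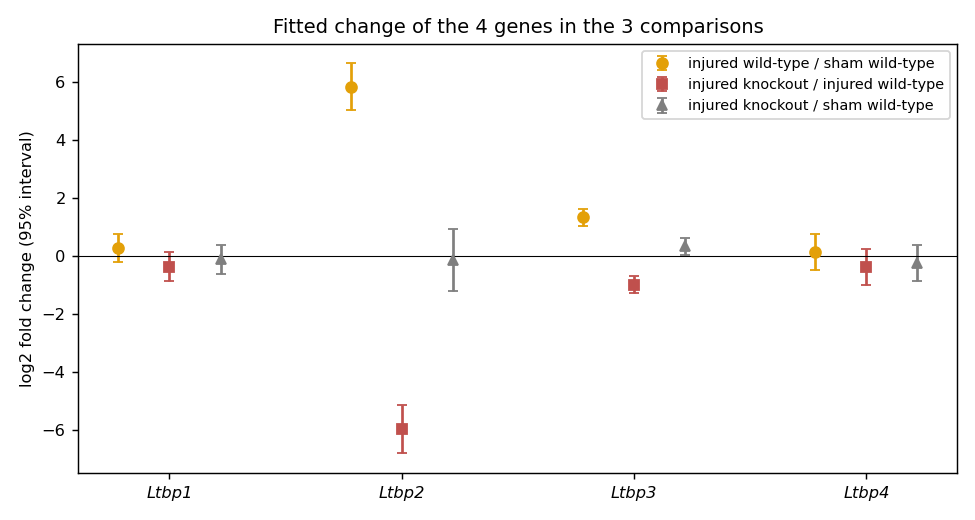
Fitted log2 fold change of each gene in the 3 comparisons, with bars for the 95% interval. Ltbp2 stands at 5.83 and -5.99 and Ltbp3 at 1.32 and -1.0 in the comparisons with injured wild-type kidneys, while every interval of Ltbp1 and Ltbp4 includes 0.

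The contrast between Ltbp2 and the paralogs that carry TGF-beta was measured as a ratio of counts within each library, which library scaling does not touch. These ratios are not per length, so only their change between groups is read. The ratio of Ltbp2 to Ltbp3 was 0.800, 0.724 and 0.708 in injured wild-type libraries, against 0.0220, 0.0603 and 0.0161 in sham libraries. In injured knockout libraries it was 0.0427, 0.0200 and 0.0103, overlapping the sham range. With injury the ratio rose by 4.69 on the log2 scale against Ltbp3, the paralog that also rose, by 5.76 against Ltbp1 and by 5.89 against Ltbp4. Between injured knockout and injured wild-type kidneys the differences were -5.10, -5.68 and -5.60 in the same order of paralogs. Without injured knockout replicate 1 they were -5.61, -6.44 and -6.52. All 3 pairs passed limma's test in both comparisons, fitted to the ratio of every tested gene to the paralog. Its adjusted p was at most 2.28e-09, which is too small where all genes share the deviations of 1 denominator. With each gene's own spread and no pooling over genes, chosen after seeing the data, the adjusted p in limma ran from 9.97e-04 to 0.0152. The exact permutation test over samples gave p = 0.10, the smallest that 3 against 3 libraries allow, for each of these 6 differences (2-sided). Between injured knockout and sham kidneys the 3 differences were -0.41, 0.08 and 0.28 (Ltbp3, Ltbp1 and Ltbp4), with 95% intervals of -2.01 to 1.19, -1.71 to 1.88 and -1.75 to 2.31. Without injured knockout replicate 1 these 3 were -0.92, -0.68 and -0.63, so 2 of them turned sign.

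**Figure D4:**
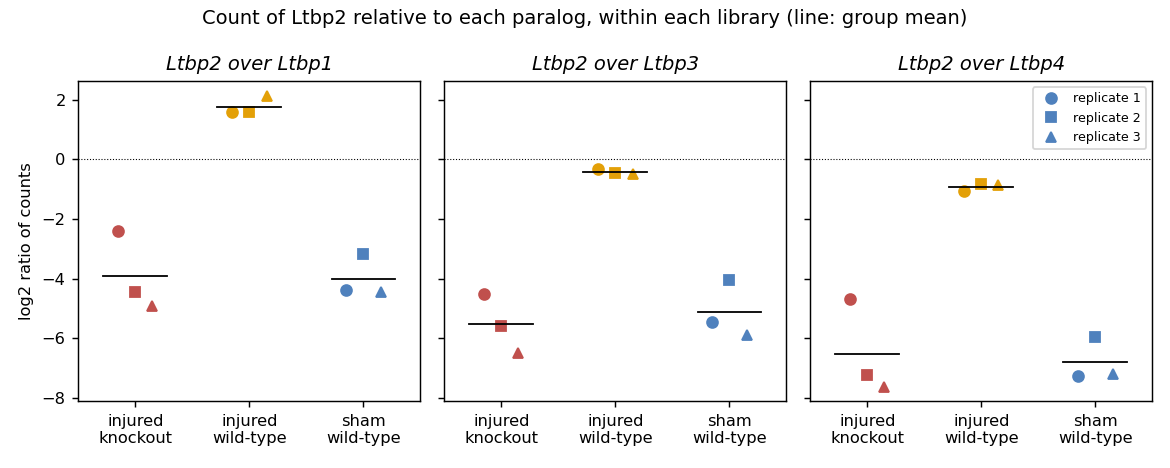
Log2 ratio of Ltbp2 counts to those of each paralog within each library, with a marker per library, a line at each group mean and a dotted line at equal counts. Injured wild-type libraries lie between 1.57 and 2.13 over Ltbp1, -0.50 and -0.32 over Ltbp3, and -1.07 and -0.82 over Ltbp4, above all libraries of the other groups.

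Per length, the make-up of the family differed between groups. Levels in CPM per kilobase of exon were ordered Ltbp4 (15.4 to 19.3), Ltbp3 (8.18 to 10.2), Ltbp2 (6.88 to 8.0) and Ltbp1 (1.39 to 1.84) in injured wild-type libraries. Sham libraries had the order Ltbp4 (14.1 to 18.4), Ltbp3 (3.24 to 4.08), Ltbp1 (1.28 to 1.59) and Ltbp2 (0.0727 to 0.230). Injured knockout libraries had the sham order, with Ltbp4 at 6.54 to 18.5, Ltbp3 at 4.15 to 5.16, Ltbp1 at 0.800 to 1.61 and Ltbp2 at 0.0588 to 0.196. Neighbours in these orders did not overlap within a group. Ltbp2 made up 19.8, 21.1 and 21.1% of the summed level in injured wild-type libraries, against 0.385, 0.972 and 0.373% in sham libraries. Its share was 1.68, 0.378 and 0.263% in injured knockout libraries. The share of Ltbp4 was 49.4 ± 2.96% in injured wild-type kidneys and 75.8 ± 3.14% in sham kidneys (SD, n = 3 each), and in injured knockout libraries it was 55.9% in replicate 1, against 75.9 and 70.2% in the others. Between groups the share of Ltbp2 differed by 20.1 points with injury and by -19.9 points between the injured groups (exact permutation p = 0.10, the smallest possible, for each).

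The genes whose profile was most like each member's were found by the root-mean-square difference of centred log2 CPM over the 9 libraries, among 10956 protein-coding genes that averaged 5 CPM or more. For Ltbp4 they were the sulphotransferase gene Chst15 (difference 0.11) and the endothelial genes Eng (0.13) and Emcn (0.15). Ltbp1 was nearest to Cbfa2t3 (0.14), Xdh (0.15) and Stim1 (0.15), and Ltbp3 to the DNA polymerase gene Pold1 (0.11), Trim68 (0.14) and Map3k21 (0.14). For Ltbp2 the nearest were Fcrls (0.64), the metalloproteinase inhibitor Timp1 (0.67) and the complement gene C3 (0.70), in a profile that spanned 6.79 on the log2 scale. Timp1 averaged 0.949 CPM in injured knockout kidneys, 50.4 CPM in injured wild-type kidneys and 1.20 CPM in sham kidneys. Among the members, Ltbp1 and Ltbp4 were most alike (0.21) and Ltbp2 and Ltbp4 least (2.76).

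Most of these neighbours were not among the nearest 3 without injured knockout replicate 1, an alternative added after seeing the data. Of the 3 genes named for each member, 0 stayed among the nearest 3 for Ltbp1, Ltbp2 and Ltbp4, and 1, Pold1, did for Ltbp3. Without that library Fcrls ranked 6, C3 7 and Timp1 11 in likeness to Ltbp2, and Map3k21 5 and Trim68 9 to Ltbp3. For Ltbp1, Stim1 ranked 6, Cbfa2t3 55 and Xdh 148, and for Ltbp4, Chst15 ranked 23. Eng had 71.2 CPM in that library, against 162 and 165 CPM in the other injured knockout libraries, and Emcn had 24.7 CPM, against 61.4 and 62.0 CPM. Both were low where Ltbp4 was low, and without that library Eng ranked 53 and Emcn 222 in likeness to Ltbp4. The range of Ltbp4 over libraries then fell to 0.45 on the log2 scale, against 1.56 with it, and that of Ltbp1 to 0.52, against 1.19. Ltbp1 and Ltbp4 remained the most alike members (0.16).

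The cargo and the other carriers moved with injury too. All 3 TGF-beta ligands rose in injured wild-type kidneys, where 29.5% of all genes rose. Tgfb1 reached 96.1 ± 6.84 CPM in injured wild-type against 27.5 ± 6.03 CPM in sham kidneys, Tgfb2 16.4 ± 3.68 against 1.94 ± 0.0856 CPM, and Tgfb3 8.57 ± 1.33 against 2.24 ± 0.209 CPM (SD, n = 3 each). Tgfb2 rose most, by 3.07 on the log2 scale, against 1.80 for Tgfb1 and 1.93 for Tgfb3. In injured knockout kidneys the 3 ligands were lower than after injury in wild-type kidneys (log2 fold changes -2.14 for Tgfb1, -3.21 for Tgfb2 and -1.29 for Tgfb3). The cell-surface carriers of latent TGF-beta changed likewise. Lrrc32, which acts on regulatory T cells and platelets, and Nrros, which acts on myeloid cells, rose by 1.02 and 2.18 with injury and fell by 1.34 and 2.53 between the injured groups. Neither these carriers nor the ligands passed the test between injured knockout and sham kidneys, where 17.6% of all genes were called. Between the injured groups 28.1% of all genes fell.

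Most genes that process latent TGF-beta or build the microfibrils it is stored on rose with injury. Over all genes 29.5% rose and 28.7% fell with injury, and 28.1% fell and 27.8% rose between the injured groups. In the list of processing and activation 12 of 17 tested genes rose and 2, the pro-protein convertase Furin (-1.19) and the integrin subunit Itgb8 (-1.25), fell, with a list median of 0.60 against 0.03 over all genes. Bmp1, a protease that releases latent complexes from the matrix, rose by 2.59, and the metalloproteinases Mmp2 and Mmp14 by 4.26 and 3.98. In injured knockout against injured wild-type kidneys 12 fell and 2 rose, Furin (0.66) and Klkb1 (1.22), whose calls were lost with scaling by library size alone. Of fibrillins and microfibril partners 13 of 14 tested genes rose (median 2.13), among them Fbn1, the fibrillin that LTBP2 binds, by 3.23, Fn1 by 3.49 and Mfap2 by 4.29. The exception was Adamts6 (0.39, adjusted p = 0.217, edgeR). In injured knockout against injured wild-type kidneys 12 of 14 microfibril genes fell (median -2.41), with Fbn1 at -2.60, Fn1 at -2.85 and Mfap2 at -3.99, while Adamts6 (-0.33) and Adamtsl2 (-0.19) were not called. Of 11 elastic fibre genes 11 rose with injury, for example the cross-linking enzymes Lox by 3.98 and Loxl2 by 2.84 and the fibulin Efemp2 by 2.59. Between the injured groups 10 fell, Lox by 3.74, Loxl2 by 2.69 and Efemp2 by 2.32, and 1, the fibulin Fbln5 (-0.49), was not called.

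Receptors and Smads were called with injury in 6 of 12 cases, against 58.2% of all genes, and 5 of 12 rose, against 29.5%. The genes that rose were Tgfbr2 (1.07), Skil (0.45), Tgfbr1 (0.43), Smad3 (0.42) and Acvrl1 (0.74), and the inhibitory Smad7 (-0.68) fell. With scaling by library size alone these became 10 rises and 0 falls. That scaling called 10868 of 15974 genes with injury, and 82.0% of those calls were rises. Of the same genes 9 of 12 fell between the injured groups, against 28.1% of all genes, with Tgfbr2 at -1.56 and Smad3 at -1.08. Of 10 target genes 9 rose with injury, the collagen chains Col1a1 by 5.46, Col3a1 by 5.16 and Col1a2 by 3.83, and 1, Ccn2 (0.72), was not called. Of the targets 9 fell between the injured groups, with Col1a1 at -4.30 and Col3a1 at -4.28, and Acta2 (0.07) was not called. Injured knockout and sham kidneys differed in 4 of 12 receptors and Smads, against 17.6% of all genes, where Tgfbr2 (-0.48), Skil (-0.46), Smad3 (-0.66) and Smad4 (-0.45) were lower, and in 3 targets, where Col1a1 (1.17), Col3a1 (0.88) and Acta2 (0.79) were higher. In the other lists, Fn1 (0.64), Mfap5 (1.98) and Ctsd (0.40) were higher and Emilin2 (-1.61), Furin (-0.52), Thbs1 (-0.68), Itgb1 (-0.33), Itgb8 (-1.13) and Plau (-1.33) lower in injured knockout than in sham kidneys. No elastic fibre gene was called there. Without injured knockout replicate 1, an alternative added after seeing the data, 2 elastic fibre genes and 1 receptor or Smad were called higher than in sham kidneys, Ctsd was not, and 1 receptor or Smad was called higher between the injured groups. Where genes behind a count of 5 or fewer are named, they were chosen after their values were seen.

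**Figure D5:**
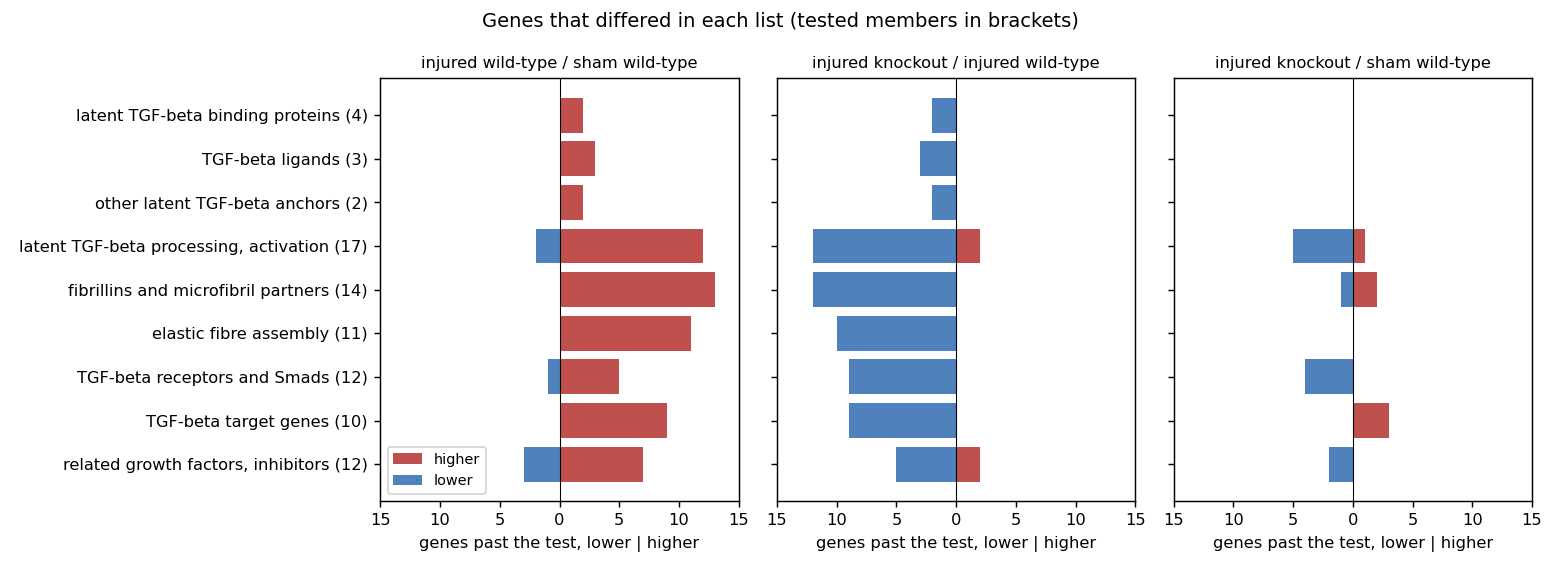
Number of genes past the edgeR test in each list, lower to the left and higher to the right of 0, in the 3 comparisons, with the number of tested genes in brackets. Microfibril genes rise in 13 of 14 cases with injury and fall in 12 of 14 between the injured groups.

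Markers of matrix-forming and immune cells moved with Ltbp2 and Ltbp3. All 8 fibroblast markers rose with injury and all 8 fell between the injured groups, with none at 0 in any library. Their sum was 131 to 265 CPM in injured knockout libraries, 1523 to 2080 CPM in injured wild-type libraries and 128 to 208 CPM in sham libraries. Col1a1 and Col1a2, at means of 674 and 742 CPM in injured wild-type kidneys, held most of that group's sum. With Postn they were also counted among the target genes above, as was Acta2 of the smooth muscle list. All 6 macrophage markers also rose with injury and fell between the injured groups, with none at 0. Their sums were 106 to 123, 1234 to 1401 and 111 to 145 CPM in injured knockout, injured wild-type and sham libraries. In bulk RNA, fewer cells of a type and less RNA per cell cannot be told apart, and the part of these cells in the change of Ltbp2 and Ltbp3 was not tested. T cell markers rose in 3 of 3 cases with injury and fell in 2 of 3, Cd3e and Cd4, between the injured groups. Proximal tubule markers fell and rose in 6 of 6. Thick limb markers fell in 2 of 2 cases with injury and rose in 1, Slc12a1, between the injured groups. Endothelial markers fell in 1 of 5 cases with injury, Kdr, and in none between the injured groups, and no podocyte marker was called in either. Smooth muscle and pericyte markers rose in 2 of 7 cases with injury, Acta2 and Des, and fell in 2, Myh11 and Ren1. Over all genes 29.5% rose and 28.7% fell with injury, so the smooth muscle and pericyte counts are near those shares. Between the injured groups 27.8% of all genes rose and 28.1% fell. In the injured groups Myh11, Cnn1 and Ren1 were higher and Des was lower in knockout than in wild-type kidneys. Against sham kidneys, injured knockout kidneys had lower Lrp2, Cubn and Slc5a12 (3 of 6 proximal tubule markers) and Umod (1 of 2 thick limb markers). They had higher Col1a1 and Lum (2 of 8 fibroblast markers) and higher Acta2, Myh11 and Cnn1 (3 of 7 smooth muscle and pericyte markers). Over all genes 9.48% were lower and 8.13% higher in that comparison. No endothelial, podocyte, macrophage or T cell marker was called there. Urothelial, mesothelial and adipocyte markers were all removed by the low-count filter, and sums stayed at or under 1.33 CPM. Of adrenal markers only Star was tested and it was not called. Of skeletal muscle markers Acta1 was called in both comparisons with injured wild-type kidneys, at a mean of 0.0473 CPM in injured knockout kidneys, 1.12 CPM in injured wild-type kidneys and 0 CPM in sham kidneys.

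An overlapping gene limits the reading of Ltbp2, because the sources do not state whether strand was used in counting. D030025P21Rik, an antisense gene, shares 764 exonic bases with Ltbp2 and had 0 to 1 counts in injured knockout, 10 to 11 in injured wild-type and 0 in each sham library. If strand was not used, reads from Ltbp2 and this gene cannot be told apart where they overlap.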

How the data were processed

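Total RNA of whole kidney went into NEBNext Ultra libraries, per the labels. The deposited values were raw counts per gene for 56305 Ensembl identifiers. The submitters' processing notes name build mm10 and DESeq2 1.16.1 without a role. No aligner, counter, annotation release or strand setting was found in those sources. GENCODE M21 (mm10) gave symbols and exon lengths for 55227 identifiers, and the rest held 0.00726 to 0.0206% of each library. The labels gave the groups, with 0 unmapped sample columns.

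After filterByExpr (15974 genes) and TMM scaling, edgeR 4.0.16 in R 4.3.3 fitted one quasi-likelihood model to all 9 libraries. Tests were 2-sided at 0.05, adjusted by Benjamini-Hochberg over every gene tested. Log2 CPM had a prior count of 2. Ratios to a paralog used a prior count of 0.5 and limma 3.58.1. The procedure was also run on simulated data. There Ltbp2 started from its mean over all libraries, so its low counts in sham and injured knockout libraries were not covered.

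The members, lists and tests were chosen with earlier results of these data known. The rule for named genes took the 4 members, Pfkfb3, all ligands and cell-surface carriers, in each other list the 3 genes with the smallest p for injury and the 2 with the smallest p between the injured groups, and 3 genes most like each member. Alternatives were DESeq2 size factors, library size alone, DESeq2 1.42.0, limma-voom, other filters, 2-group fits, a replicate block, other lengths and prior counts, and leaving out each library. One overlapping gene is not reported here.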

Additional observations from a re-analysis of the deposited data

How the results depend on the processing

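Ltbp2 and Ltbp3 kept their direction and call with injury and between the injured groups under every alternative run. Leaving out 1 library, the log2 fold change of Ltbp2 ran from 5.55 to 6.60 with injury and from -6.60 to -5.65 between the injured groups, and that of Ltbp3 from 1.22 to 1.42 and from -1.10 to -0.90. Ltbp1 and Ltbp4 depended on scaling: with library size alone Ltbp1 was called at 0.80 with injury and at -0.96 between the injured groups, where Ltbp4 was called at -0.96. That scaling made 82.0% of all calls with injury rises, against 50.6% with TMM, and 16.9% of calls between the injured groups, against 49.7%. Without the low-count filter Ltbp4 was called there at -0.38 (adjusted p = 0.0369), and the cause was not tested.

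Between injured knockout and sham kidneys signs turned when a library was left out: Ltbp1 to 0.13 and Ltbp4 to 0.086 without injured knockout replicate 1, and Ltbp2 to 0.60 without sham replicate 2 and 0.17 without injured knockout replicate 3. The ranges were -0.31 to 0.13 for Ltbp1, -0.53 to 0.09 for Ltbp4 and -0.78 to 0.60 for Ltbp2. The ratio of Ltbp2 to Ltbp1 ran from -0.68 to 0.58 (-0.10 without sham replicate 1, -0.15 without sham replicate 3, -0.68 without injured knockout replicate 1). That to Ltbp3 ran from -0.92 to 0.13 (0.13 without sham replicate 2, 0.08 without injured knockout replicate 3), and that to Ltbp4 from -0.63 to 0.84 (-0.63 without injured knockout replicate 1). None of these was called. With a replicate block Ltbp3 was called in this comparison at 0.32 (adjusted p = 0.0469), and the block changed no other call of a member. The labels do not say whether replicate numbers pair libraries. Same-numbered deviations correlated at -0.12 to 0.06 and differently numbered ones at -0.06 to 0.12. These deviations were centred within groups of 3, so the correlations cannot show whether libraries were paired. All genes called there numbered 2813, and 640 to 2868 when a library was left out, with 640, 1064, 1683 and 1560 without sham replicates 2 and 3 and injured knockout replicates 2 and 3.

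The difference in the share of Ltbp2 with injury was 18.5 points with the length of the longest transcript and 21.4 points without division by length. Between the injured groups it was -18.3 and -21.2 points. Depth limits Ltbp2 in injured knockout and sham kidneys, at 7 to 34 counts a library.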

Other observations

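Other growth factors and inhibitors of the TGF-beta superfamily, among them some with latent or microfibril-bound forms, were split. With injury 7 of 12 tested genes rose and 3, Chrdl1, Bmp4 (-0.45) and Bmp7 (-0.92), fell, against 29.5% and 28.7% of all genes. The list median was 1.13 against 0.03 over all genes. Inhba, a subunit of activin A, had 10.8 ± 1.90 CPM in injured wild-type against 0.483 ± 0.0478 CPM in sham kidneys (SD, n = 3 each), and Fstl1 136 ± 18.3 against 22.4 ± 3.86 CPM. The BMP antagonist Chrdl1 went the other way, with 0.512 ± 0.437 CPM in injured wild-type against 10.5 ± 3.64 CPM in sham kidneys. Between the injured groups Inhba and Fstl1 fell by 3.83 and 2.47 on the log2 scale and Chrdl1 rose by 4.22. Bmp4 and Inhbb were lower in injured knockout than in sham kidneys (-0.44 and -2.11), and 1 of these calls was left without injured knockout replicate 1. Falls between the injured groups numbered 5 of 12 (Inhba, Inhbb, Fst, Fstl1 and Fstl3), against 28.1% of all genes. Rises numbered 2, Bmp7 (1.26) and Chrdl1, against 27.8% of all genes. With scaling by library size alone the falls were 10 of 12. That scaling called 10971 of 15974 genes between the injured groups, and only 16.9% of those calls were rises.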
